A study of Mus musculus with 2 samples.

Results

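The Dlk1-Meg3 cluster is an imprinted stretch of mouse chromosome 12, where most genes are expressed from 1 parental copy. Its 7 members, given by symbol, were Begain, Dlk1, Meg3, Rtl1, Rian, Mirg and Dio3, and all 7 were found among the 43346 genes of the deposited tables. The samples were total RNA of ES-E14 cells, a stem cell line established from a male mouse embryo of strain 129/Ola. The labels name no treatment, time or added allele for these cells. The series held 1 group of 2 libraries, called replicate 1 and replicate 2. The labels number them as biological replicates but give both the identifier of a single cell sample, and how much of the spread between them is technical is not known. The 2 libraries are of 1 line, and no sample with another genotype or cell type was set against them.

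In the embryo, Dlk1, Rtl1 and Dio3 are expressed from the paternal copy, and the noncoding RNAs Meg3, Rian and Mirg from the maternal copy. A region between Dlk1 and Meg3 that is methylated on the paternal copy sets which copy is used, and the maternal noncoding RNAs are strung along the same strand with many microRNAs and small nucleolar RNAs. The noncoding RNAs are known to be silenced in some cultured stem cell lines, which limits how well such a line can stand for the embryo. The tables do not separate the parental copies, so every level below is a sum over both.

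The noncoding members were far above the protein-coding members in both libraries. Levels are given in TPM (transcripts per 1000000, corrected for length) as mean ± SD over n = 2 libraries. Rian stood at 215 ± 32.8 TPM, Meg3 at 51.4 ± 2.21 TPM and Mirg at 38.6 ± 2.55 TPM. Of the protein-coding members, Dlk1 had the highest mean, 2.19 ± 0.841 TPM, although Dio3 was above it in replicate 1. The lowest noncoding member was 22.3-fold above the highest protein-coding member in replicate 1 and 14.5-fold above it in replicate 2. In bulk RNA, fewer cells with a transcript and less of it per cell cannot be told apart.

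**Figure D1:**
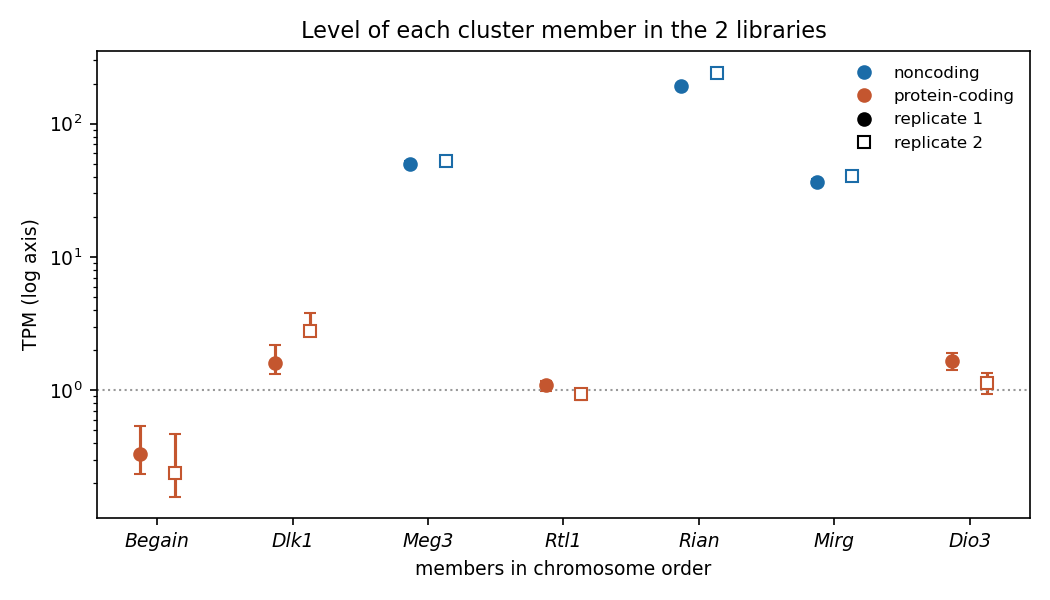
TPM (log axis) of the 7 members in chromosome order, filled circles for replicate 1 and open squares for replicate 2, with the deposited interval bounds as bars and a dotted line at 1 TPM. Meg3, Rian and Mirg (blue) lie between 36.8 and 238 TPM, and the protein-coding members (orange) lie between 0.24 and 2.78 TPM.

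Meg3 is a long noncoding RNA that lies at the start of the maternal transcription unit. It (ENSMUSG00000021268) spans bases 109541001 to 109571726 of chromosome 12 on the plus strand (mm10). It had 49.79 TPM in replicate 1 and 52.92 TPM in replicate 2, from 6886 and 7014 expected counts. The libraries were close for Meg3, and their deposited intervals overlapped, at 47.2 to 52.3 TPM and 50.1 to 55.6 TPM. The sources used here do not give the level of these intervals. By mean TPM, Meg3 ranked 20 of 5562 long noncoding genes with an effective length of 100 bases or more.

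Rian, the host of C/D-box small nucleolar RNAs, was the highest member. It (ENSMUSG00000097451) lies at 109603940 to 109661716 on the plus strand. It had 191.78 and 238.19 TPM in replicates 1 and 2, from 15156 and 18978 expected counts. Replicate 2 was the higher, and the deposited intervals, 186 to 197 and 232 to 244 TPM, did not overlap. Rian ranked 5 of the 5562 long noncoding genes and held 68.9% and 71.9% of the TPM of the 3 noncoding members.

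Mirg is named for the microRNAs that it contains. It (ENSMUSG00000097391) lies farthest along the same strand, at 109729764 to 109749460. It had 36.78 and 40.38 TPM, from 3596 and 3674 expected counts, and ranked 22 of 5562. The order of the noncoding members, Rian then Meg3 then Mirg, was the same in both libraries. Meg3 was 1.35-fold and 1.31-fold above Mirg, and the values of the 2 genes did not overlap. This order depends on the length used. With expected counts divided by the longest transcript of each gene and scaled to 1000000 in all, Mirg (29.8 ± 0.994) stood above Meg3 (15.0 ± 0.531), while Rian stayed highest at 65.9 ± 7.26.

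Dlk1 encodes a membrane protein of the Delta-like family that restrains differentiation, for example of fat cells. It (ENSMUSG00000040856; 109452823 to 109463336, plus strand) had 1.59 and 2.78 TPM, from 142 and 281 expected counts. Replicate 2 was higher, and the deposited intervals, 1.32 to 2.18 and 2.64 to 3.77 TPM, did not overlap. Dio3 encodes the deiodinase that inactivates thyroid hormones. It (ENSMUSG00000075707; 110279068 to 110281097, plus strand) went the other way, with 1.65 and 1.13 TPM from 201 and 138 expected counts. Dio3 was thus above Dlk1 in replicate 1 and below it in replicate 2, and the 2 genes have no order beyond the spread between libraries. With counts divided by the longest transcript, Dlk1 (1.41 ± 0.593) lay below both Dio3 (2.63 ± 0.815) and Rtl1 (2.36 ± 0.456) in each library.

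Rtl1 encodes a protein derived from a retrotransposon and needed in the placenta. It (ENSMUSG00000085925; 109589193 to 109600330, minus strand) had 1.09 and 0.93 TPM, from 526 and 428 expected counts. Its highest value was just under the lowest value of Dio3, and the deposited interval of Rtl1 in replicate 1 (0.995 to 1.18 TPM) overlapped that of Dio3 in replicate 2 (0.933 to 1.34 TPM). Begain, a gene for a postsynaptic protein, marks the edge of the cluster. It (ENSMUSG00000040867; 109032187 to 109068217, minus strand) was lowest, with 0.33 and 0.24 TPM from 34.2 and 23.2 expected counts. Among 21474 protein-coding genes ordered by mean TPM, Dlk1 ranked 8537, Dio3 9712, Rtl1 10444 and Begain 12688.

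With detection taken as 1 TPM or more in both libraries, all 3 noncoding members were detected, where 3.92% of all long noncoding genes were. Of the 4 protein-coding members, Dlk1 and Dio3 were detected, against 46.3% of all protein-coding genes. Rtl1 reached 1 TPM in replicate 1 only. The count of 2 of 4 is near the share over all protein-coding genes. The limit is tied to the scale: with TPM rescaled so that protein-coding genes other than mitochondrial ones sum to 1000000, every mean was higher (Rian 1034, Begain 1.41) and all 7 were detected.

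The gap between the classes was large on every scale computed. The summed TPM of the noncoding members was 278 against 4.66 for the protein-coding members in replicate 1, and 331 against 5.08 in replicate 2, ratios of 59.7 and 65.3. The difference of the medians of log2(TPM + 1), noncoding minus protein-coding, was 4.45 and 4.73. In expected counts, which also grow with transcript length, the noncoding members held 25638 of the 26541 counts of the cluster in replicate 1, or 96.6% (95% Wilson interval 96.4 to 96.8%). They held 29666 of 30536, or 97.2% (97.0 to 97.3%), in replicate 2. These intervals cover counting error only. With counts divided by the longest transcript, the ratio of sums fell to 14.6 and 18.6, and the lowest noncoding member was still 4.78-fold and 7.09-fold above the highest protein-coding member.

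The noncoding members are spread over many annotated transcripts, and how much of each gene a transcript holds depends on whether TPM or counts are used. The tables list 58 transcripts of the members, 42 of them noncoding members' (19 for Rian, 12 for Mirg, 11 for Meg3) and 16 of the protein-coding members. A percent of gene output is deposited for each transcript, as its share of the gene's TPM. The highest transcript of Meg3 was Meg3-205, of 3 exons and 1498 bases, with 25.28% and 28.35%. It starts at the annotated start of Meg3 and ends early, at 109545319. Meg3-207, of 10 exons, reaches from the start to the end of the gene and had 23.09% in each library. Meg3-209, of 14548 bases, had 5.63% and 5.54% of the TPM but 45.5% and 44.6% of the expected counts.

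Rian had no leading transcript by a wide margin. Rian-213 had 19.13% and 18.34% of its TPM, Rian-202 14.02% and 17.54%, and Rian-210, of 295 bases, 16.31% and 12.47%. By expected counts Rian-202 led, with 30.3% and 35.8%. Transcripts that begin within 10 bases of the annotated start of Rian held 9.37% and 9.11% of its TPM. The same share was 48.4% and 51.4% for Meg3. No listed transcript runs from the start of Rian to its end. In Mirg, the leading transcript Mirg-207 had 20.61% and 19.61%, and Mirg-212, the only one spanning the gene, had 4.46% and 3.08%. By expected counts Mirg-207 held 8.81% and 8.53%, and the leaders were Mirg-204 in replicate 1 (21.05%) and Mirg-208 in replicate 2 (23.3%). Short reads divide such overlapping models by estimation, so these shares are less sure than the gene levels.

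**Figure D2:**
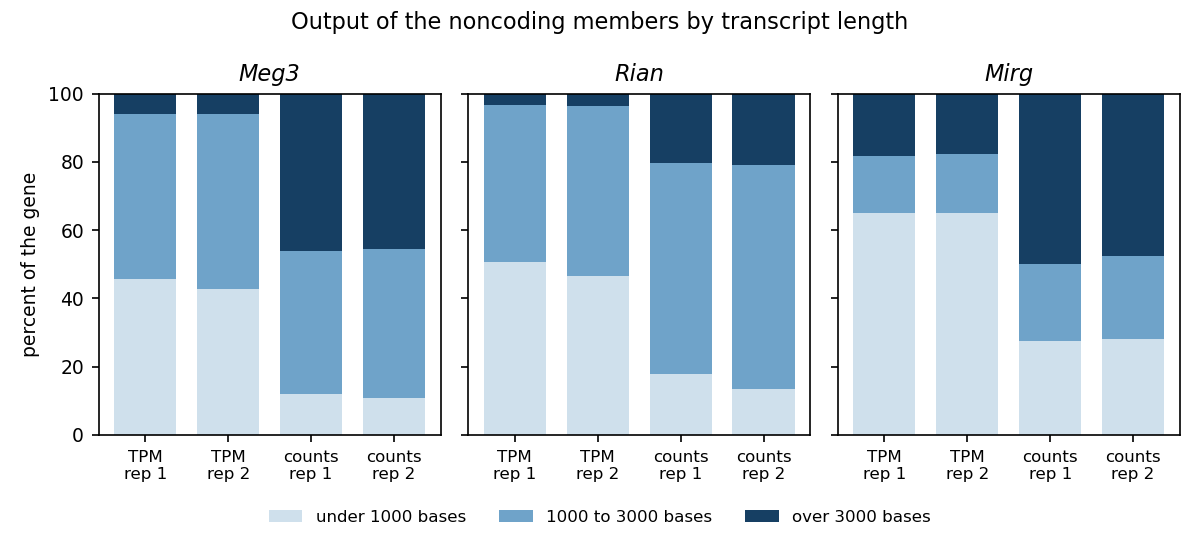
Percent of each noncoding member (y axis) held by its transcripts under 1000 bases, of 1000 to 3000 bases and over 3000 bases, as stacked bars of TPM and of expected counts in replicates 1 and 2. Meg3 transcripts over 3000 bases held 5.85% of its TPM and 46.2% of its counts in replicate 1, Rian's 3.34% and 20.3%, and Mirg's 18.3% and 49.9%.

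The protein-coding members had fewer transcripts and lower counts. Dlk1-205, of 1703 bases, led with 55.10% and 60.30% of the TPM of Dlk1. The second place differed: Dlk1-202 had 29.85% in replicate 1 and was listed at 0 in replicate 2, while Dlk1-203 was listed at 0 and then had 28.20%. These rest on 26.7 and 56.3 expected counts. The 3 transcripts that reach the annotated end of Dlk1 held 0.32% and 1.35%. Dio3 has 2 single-exon models that share most of their bases, and its leader changed from Dio3-201 (52.47% and 39.20%) to Dio3-202 (47.53% and 60.80%). By expected counts Dio3-202 led in both, with 56.8% and 69.2%. For Begain, a model with a retained intron, Begain-202, held 67.94% and 49.03%, against 32.06% and 33.54% for the spliced protein-coding model Begain-203. By expected counts the order turned, with 62.0% and 66.4% for Begain-203 against 38.0% and 27.9% for Begain-202. Each Begain transcript had 21.2 expected counts or fewer. Of the 6 members with several transcripts, 5 had the same leading transcript in both libraries. The share was 88.8% over 2452 genes with several transcripts and 10 TPM or more in both. Begain, Dlk1 and Dio3 were below 10 TPM and lie outside those genes, so the 2 shares are not of like genes.

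Windows at the RefSeq starts of the members differ in their CG content. Shown, as context for the levels above, are the 250 bases before the RefSeq start (build GRCm38.p6, plus strand, 5′ to 3′) of Meg3 (chr12:109540746-109540995), Rian (chr12:109603695-109603944), Dlk1 (chr12:109452573-109452822) and Dio3 (chr12:110278980-110279229), with each CG dinucleotide in capitals.
Meg3: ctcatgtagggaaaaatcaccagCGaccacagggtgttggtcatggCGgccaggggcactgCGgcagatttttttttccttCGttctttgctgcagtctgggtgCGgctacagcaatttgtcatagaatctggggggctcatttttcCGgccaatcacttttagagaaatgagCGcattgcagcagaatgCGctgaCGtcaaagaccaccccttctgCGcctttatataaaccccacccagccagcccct
Rian: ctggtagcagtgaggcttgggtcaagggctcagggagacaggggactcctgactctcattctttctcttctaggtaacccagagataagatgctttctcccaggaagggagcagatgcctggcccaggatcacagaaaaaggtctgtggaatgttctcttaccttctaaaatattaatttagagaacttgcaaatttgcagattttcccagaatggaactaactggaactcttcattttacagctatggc
Dlk1: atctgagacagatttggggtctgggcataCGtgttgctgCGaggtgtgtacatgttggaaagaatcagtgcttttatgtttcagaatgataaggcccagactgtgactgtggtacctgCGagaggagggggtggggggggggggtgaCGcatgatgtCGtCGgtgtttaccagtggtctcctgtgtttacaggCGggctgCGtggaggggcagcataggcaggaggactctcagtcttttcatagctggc
Dio3: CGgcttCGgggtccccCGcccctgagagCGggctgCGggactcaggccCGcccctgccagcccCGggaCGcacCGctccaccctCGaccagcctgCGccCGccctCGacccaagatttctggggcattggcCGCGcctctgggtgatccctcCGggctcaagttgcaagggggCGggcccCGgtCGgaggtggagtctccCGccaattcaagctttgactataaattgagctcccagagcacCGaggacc

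Counted over 300 bases (250 before to 50 after the start), the Meg3 window shown has 13 CG dinucleotides and that of Rian 0. Dlk1 has 9 and Dio3 25, against a median of 7 over 32851 RefSeq promoters. The table held 11 promoters of 6 of the 7 members. The 5 of Begain, the lowest member, had the most, 34 to 46 CG, and a second start of Meg3 had 1. The only Mirg window, with 10, begins at 109734731, inside the gene model used here and not before its start. The letters TGCCGC, the core bound by the imprint-keeping zinc finger protein ZFP57 when methylated, were searched on both strands. They occurred in the Meg3 window, on the opposite strand from base -190, and in no other member's window, while 11.6% of all promoters hold them. TATAAA, the TATA box letters, occurred in the Meg3 window at -25 and, overlapping it on the other strand, at -29, and in the Dio3 window at -31, against 13.6% of all promoters. A match of letters is no measure of binding, and methylation was not measured. The Dlk1 window lies before the outermost annotated start, and transcripts within 10 bases of that start held 1.58% and 1.33% of its TPM.

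From the start of Begain to the end of Dio3, on 1.25 Mb, 122 genes are annotated, and 99 of them are in the tables. Of the 99, 87 had an effective length of 0, and such models take no reads under this quantification. An expected count above 0 was found for 11, the 7 members and 4 other noncoding genes. Genes with 1 TPM or more in both libraries were 7: 5 members, Gm26945 and Gm37899. Gm26945 (109640341 to 109642351), a long noncoding model inside an intron of Rian, had 2.35 and 2.80 TPM. Gm37899 (109668869 to 109677585), a model still to be tested experimentally, lies between Rian and Mirg and had 1.13 and 1.70 TPM. The other 2, chosen after their values were seen, were B830012L14Rik at 0.56 and 0.66 TPM and Gm26906, antisense at the end of Meg3, at 0.49 and 0.38 TPM.

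**Figure D3:**
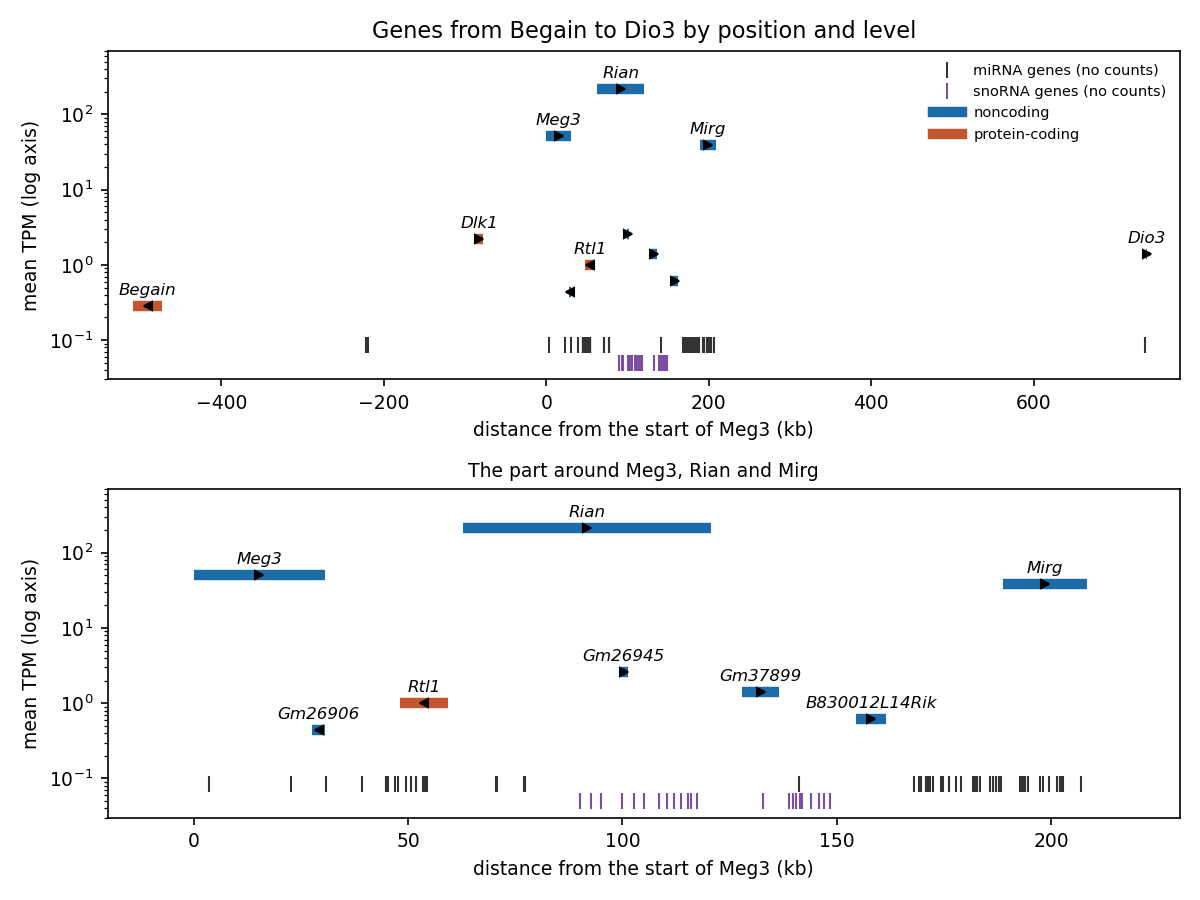
Mean TPM (log axis) against distance from the start of Meg3 (kb) for the 11 genes with counts, bars for their extent and arrowheads for their strand, over the whole interval (top) and around Meg3, Rian and Mirg (bottom). The 3 noncoding members stand above all others, and ticks mark microRNA and small nucleolar RNA genes, none of which had counts.

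Nearly all counts of the interval came from genes on the plus strand, 97.8% of 27861 in replicate 1 and 98.5% of 32241 in replicate 2. Meg3, Rian and Mirg held 92.0% in each, and the 4 genes that are not members 4.74% and 5.29%.

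The small RNAs themselves cannot be read from these tables. GENCODE annotates 69 microRNA and 23 small nucleolar RNA genes in the interval, and 84 of these 92 are in the tables, all with an effective length of 0 and 0 counts. A 0 there shows only that such short models take no reads under this quantification. By position, 13 of the small nucleolar RNA genes lie within Rian, 8 of them in an exon of some transcript and 5 in introns, and 10 lie between Rian and Mirg. On the plus strand, 26 microRNA genes lie between Rian and Mirg, 14 within Mirg, 7 between Meg3 and Rtl1, 6 within Rtl1, 4 within Rian and 2 within Meg3.

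The 6 microRNA genes within Rtl1 lie on its opposite strand, so each mature microRNA is complementary to the Rtl1 transcript. RefSeq gives 11 mature microRNAs there, and all 11 had exactly 1 perfect complement in Rtl1-201, in its coding part. Shown are 5, each followed by its site in Rtl1, since they are the sequence link between the noncoding strand and a protein-coding member. The seed, bases 2 to 8 of the microRNA, and its complement in the site are in capitals.
miR-136-5p: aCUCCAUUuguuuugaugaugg
Rtl1 site of miR-136-5p: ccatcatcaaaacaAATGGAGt
miR-434-3p: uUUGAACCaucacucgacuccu
Rtl1 site of miR-434-3p: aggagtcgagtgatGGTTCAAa
miR-127-3p: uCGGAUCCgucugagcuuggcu
Rtl1 site of miR-127-3p: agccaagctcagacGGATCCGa
miR-433-3p: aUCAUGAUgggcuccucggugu
Rtl1 site of miR-433-3p: acaccgaggagcccATCATGAt
miR-431-5p: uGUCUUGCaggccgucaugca
Rtl1 site of miR-431-5p: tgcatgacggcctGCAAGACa

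Counted from the 5′ end of Rtl1-201, the sites begin at base 199 for miR-136-5p, 965 for miR-434-3p, 2642 for miR-127-3p, 3749 for miR-433-3p and 5072 for miR-431-5p. The microRNAs lie on the plus strand of GRCm38, for example miR-127-3p at chr12:109592888-109592909. The 5 seeds shown all differ. Over the interval, RefSeq lists 113 mature microRNA names at 114 places (miR-3070-5p is listed at 2), with 104 distinct seeds, of which 9 are shared by a pair of names. The sources used here do not say whether the counting used strand. The deposited text lists plus and minus strand signal tracks, which does not settle how reads were counted. If strand was not used, reads of Rtl1 and of an RNA antisense to it cannot be told apart. The level of Rtl1 is therefore uncertain, as are the levels of Gm26906 and of the end of Meg3.

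Between the libraries, 0 of 7 members were 2-fold apart on log2(TPM + 1), against 4.11% of the 11436 genes whose mean was at least 1 TPM (470 genes, 371 higher and 99 lower in replicate 2). For so few members a count of 0 is near that share. Begain, below 1 TPM in both libraries, lies outside the 11436 genes and could not be 2-fold lower on this scale. The count of members was 0 under each of the 7 settings compared, which were 6 scales or scalings and a pseudocount of 0.1. With 1 library on each side no test was possible. Of the 470, 78.9% were higher in replicate 2, but this split turned with the scaling: 36.8% were higher with edgeR TMM factors (143 higher, 246 lower), 41.1% with DESeq2 size factors (153 higher, 219 lower), and 45.4% with TPM rescaled to protein-coding genes (506 higher, 608 lower). With FPKM it was 62.2%. The median gene was 0.23 higher in replicate 2 on the log2 scale. Small nucleolar RNAs took 31.8% of all TPM in replicate 1 and 21.3% in replicate 2, and protein-coding genes 19.35% and 23.8%. TPM divides by effective length, which weighs short models heavily, so these are not shares of reads. The part of small nucleolar RNAs in these differences was not tested.

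Dlk1 (0.55) and Rian (0.31) were above that median, and were higher in replicate 2 under all 7 settings, although for Rian the difference shrank to 0.013 under TMM. Begain (-0.10), Rtl1 (-0.11) and Dio3 (-0.32) were lower in replicate 2 under all 7. Meg3 (0.09) and Mirg (0.13) were higher under 3 and lower under 4, and lay below the median gene under all 7.

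**Figure D4:**
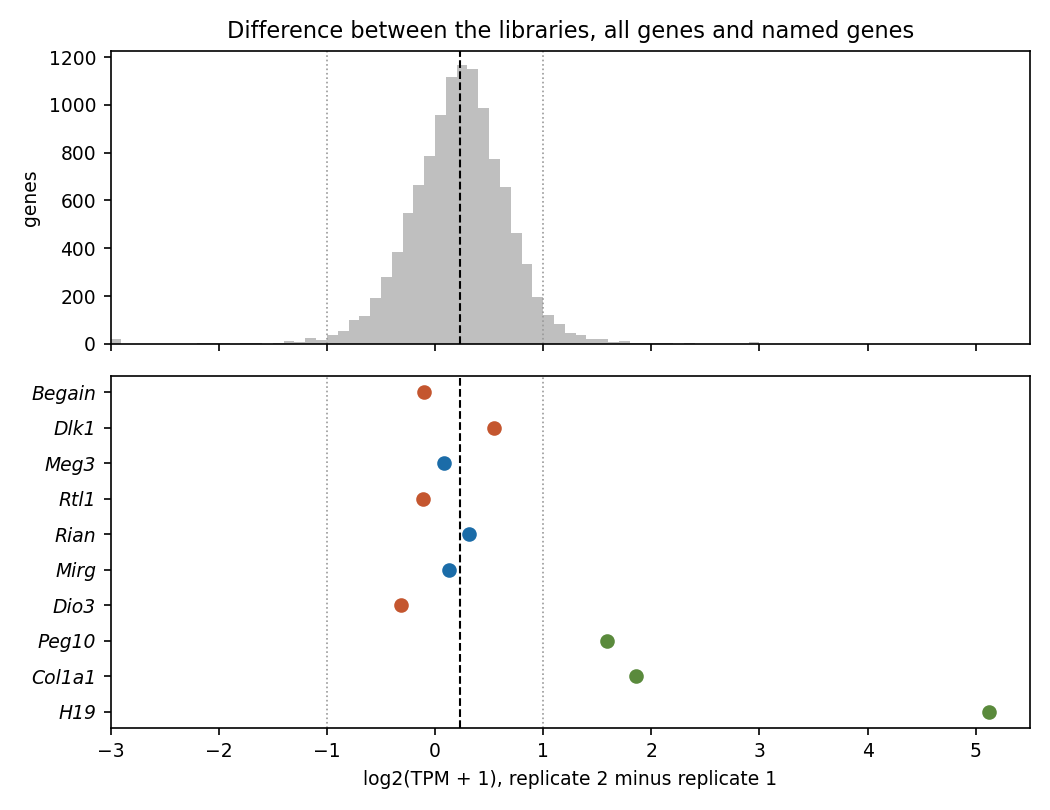
Top, number of genes by log2(TPM + 1) in replicate 2 minus replicate 1 for 11436 genes, with values beyond 3 in either direction counted in the outermost bars. Bottom, the same difference for the 7 members (blue noncoding, orange protein-coding) and for Peg10, Col1a1 and H19 (green); the dashed line is the median gene (0.23), the dotted lines mark 2-fold, and the members lie between -0.32 and 0.55.

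The cells carried the markers of their label. All 10 embryonic stem cell markers were at 1 TPM or more in both libraries, with a median of 42.4 and 36.7 TPM. By TPM, 5 of these 10 were higher and 5 lower in replicate 2, and none was 2-fold apart. Markers of some other cells were mostly higher in replicate 2. Of 17 feeder fibroblast markers, 15 were higher in replicate 2 and 7 of these 2-fold. The number 2-fold higher ran from 6 with TMM or DESeq2 factors to 9 with TPM rescaled to protein-coding genes. For comparison, 371 of the 11436 genes set against each other above were 2-fold higher in replicate 2. Their median was itself 0.23 higher by TPM, so on that scale a count of higher markers alone is weak evidence of a shift. The summed TPM of the feeder markers was 94.2 and 283, most of it from Tagln (42.26 and 109.83 TPM) and Acta2 (33.04 and 100.23 TPM). Col1a1 had 7.21 and 28.84 TPM, and Lum was at 0 in both. All 6 endoderm markers were higher (sum 1.29 and 6.59 TPM), as were all 6 trophectoderm markers (130 and 211 TPM). Of the neural markers 3 of 6 were higher, and of the mesoderm markers 3 of 5. Most of the trophectoderm sum came from Krt8 (72.69 and 113.57 TPM) and Krt18 (52.51 and 91 TPM). The next in that list, Tfap2c, had 3.56 and 4.57 TPM. The median log2 difference was 0.73 for feeder, 0.68 for endoderm and 0.54 for trophectoderm markers. It was 0.06 for neural and 0.06 for mesoderm markers, below the median of all genes. The counts of higher feeder, endoderm, trophectoderm and neural markers were the same under all 6 scales. These include TMM scaling, where the median of all genes was -0.01. Whether other cells were present, or the stem cells themselves expressed these markers, was not tested. Any part of this in the differences of Dlk1, Rian, Rtl1, Dio3 and Begain was not tested either.

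Most of the listed genes of imprint control were expressed. Of 16 listed, 15 had 1 TPM or more in both libraries, against 46.3% of all protein-coding genes, and none was 2-fold apart. The highest were Trim28, a corepressor recruited by zinc finger proteins (490 and 579 TPM), Zfp57 (84.87 and 84.97 TPM) and Dnmt3l, the cofactor of the de novo methyltransferases (63.04 and 89.60 TPM). Aff3, which binds the control region of this cluster, was lowest, at 0.52 and 0.47 TPM. All 13 genes of microRNA and small nucleolar RNA processing were detected, against the same 46.3%. They were led by the small nucleolar ribonucleoprotein genes Nop56 (304 and 283 TPM), Nop58 (85.1 and 131 TPM) and Snu13 (62.4 and 96.7 TPM). Snu13 and the helicase gene Ddx5 (58.8 and 99.7 TPM) changed places between the libraries. Ago1, an Argonaute, had the lowest mean (4.47 and 3.88 TPM), but Dicer1 (3.77 TPM) was lower in replicate 1.

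Several genes that work beside the protein-coding members were expressed above them. Of 15 Notch pathway genes, the setting in which DLK1 is studied, 10 were detected, against 46.3% of all protein-coding genes. Their median was 4.67 and 3.19 TPM over the 15. Rbpj, the DNA-binding effector, had 15.75 and 22.01 TPM, and the receptors Notch1 14.88 and 8.10 and Notch3 14.06 and 8.05 TPM. The ligand genes Dll1 (8.15 and 3.19 TPM) and Dll3 (3.45 and 0.98 TPM) were 2-fold lower in replicate 2 under all 6 scales, the opposite direction to Dlk1. They were not alone in this, as 9 of the 15 were lower by TPM and 6 were higher, as Dlk1 was. The number 2-fold lower ran from 2 by TPM to 5 with TMM factors. Dll4 was lowest (0.08 and 0.06 TPM). Of 11 thyroid hormone genes 4 were detected, against the same 46.3%. Sephs2 (24.46 and 29.24 TPM) and Secisbp2 (5.93 and 5.94 TPM) are both needed to make selenoproteins such as DIO3. The others were the selenoprotein reductase Txnrd1 (14.25 and 29.72 TPM) and the receptor Thra (1.73 and 1.76 TPM). Txnrd1 was higher in replicate 2 under all 6 scales, but 2-fold under 2 of them only. The transporter Slco1c1 was listed at a TPM of 0 in both, with 1 expected count in replicate 1.

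Of 11 gag-derived relatives of Rtl1, Peg10, Rtl8b and Rtl10 were detected, 3 in all, against 46.3% of all protein-coding genes. Peg10, itself imprinted and paternally expressed, had 22.35 and 69.47 TPM and was 2-fold higher in replicate 2 under all 6 scales. Rtl8b (1.25 and 2.67 TPM) and Rtl8a (0.95 and 2.77 TPM) are near copies that share reads, so their values are uncertain. Rtl4 and Rtl9 were at 0 counts. Outside the cluster, 8 of 11 neighbouring genes were detected, against the same 46.3%. Hsp90aa1, a chaperone (327 and 561 TPM), Dync1h1, a dynein chain (134 and 97.7 TPM) and Wars, a tRNA synthetase (12.11 and 20.38 TPM), were highest, and Degs2 was lowest (0.16 and 0.09 TPM).

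The 6 listed RNAs of other imprinted clusters were lower than Meg3, Rian and Mirg in replicate 1. H19, the maternal noncoding RNA next to Igf2, had 2.96 TPM in replicate 1 and 136.7 TPM in replicate 2, from 479 and 19702 expected counts. Mcts2, an imprinted retrogene with a reading frame of its own that was listed with them, had 7.53 and 20.08 TPM, Snhg14 7.89 and 12.49, Nespas 7.60 and 10.37, Kcnq1ot1 1.29 and 2.45, and Airn 0.09 and 0.69 TPM. All 6 were higher in replicate 2 under all 6 scales, and H19 and Mcts2 were 2-fold higher under each. In replicate 2 only H19 of the 6 exceeded Mirg, and it also exceeded Meg3 (52.92 TPM) but not Rian (238.19 TPM).

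By Euclidean distance in log2(TPM + 1) over the 2 libraries, among 33887 genes with an effective length of 200 bases or more, the genes nearest to Meg3 were Mlec (distance 0.05), Uhrf1 and Tomm7. Those nearest to Rian were the ribosomal protein gene Rps7 (0.09), Sod1 and Rpl36al, and those nearest to Dlk1 were Tmsb15b1 (0.02), Fam214b and Pja2. With 2 libraries this likeness is one of level only.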

How the data were processed

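Total RNA-seq of 2 ES-E14 libraries was read from deposited gene and transcript tables. Per the deposited text files, the alignment used mm10 and GENCODE annotation M4. Aligner and quantifier names were not given in the sources used here. Per the file headers, the authors' values are expected counts, TPM, FPKM, effective lengths, posterior mean TPM, interval bounds (used as signal values) and the percent of gene output by transcript (IsoPct). Expected counts were rounded only for scaling factors. Genes were matched to GENCODE M21 on GRCm38 (42462 of 43346; 884 unmatched), the assembly of mm10. Replicate 1 had 43163300 and replicate 2 45573512 expected counts over genes. Left out were 26248 rows whose name is only a number, and 97 other rows that are not genes. Differences are log2 of deposited TPM plus 1, which understates those of low genes.

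The members and lists were chosen with earlier results of these data known. Named were all members, genes of the interval detected in both libraries (effective length 100 or more), of each of 7 context lists the 3 highest, the lowest and any 2-fold apart, and 3 nearest genes for Meg3, Rian and Dlk1. Other genes named (Thra, Rtl10, Ddx5, Dicer1, Nespas, Kcnq1ot1, Lum, Col1a1, Tagln, Acta2, Krt8, Krt18, Tfap2c, Gm26906, B830012L14Rik), the 10-base windows, the length classes and the levels per longest transcript were chosen after values were seen. Peg13 had no match. Sequences came from RefSeq tables and GENCODE transcripts. Tools were pandas 2.3.3 and numpy 2.4.6 in Python 3.11.15, with matplotlib 3.10.9 for plots, and edgeR 4.0.16 and DESeq2 1.42.0 in R 4.3.3 for scaling only. Of the statistics, only the count of genes 2-fold apart was tested on simulated data.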

Additional observations from a re-analysis of the deposited data

Results flagged for a closer look

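Some rows of the tables have only a number for a name and were used nowhere in the comparisons. In replicate 2 these rows had 15 expected counts together, where the limit for a count of 0 is 3, and in replicate 1 they had 1. There are 26248 such rows, and none belongs to the cluster.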

How the results depend on the processing

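No paired analysis was possible because the 2 libraries form 1 group. The direction of every comparison between noncoding and protein-coding members was the same under all alternatives run. The difference of medians (4.59) was 4.88 with FPKM, 5.23 with TPM rescaled to protein-coding genes, 3.45 with counts per longest transcript, 5.35 with a pseudocount of 0.1 and 5.19 as a difference of means, and 4.45 to 4.73 by library. The ratio of summed TPM (62.5) was 58.4 with posterior mean TPM, 16.6 with counts per longest transcript and 78.9 with Rtl1 left out, and 59.7 to 65.3 by library. The share of counts was 96.6 to 97.2% by library. The 470 genes that were 2-fold apart became 1114 with rescaled TPM and 972 with a pseudocount of 0.1. Detected members (5) became 3 at a limit of 5 TPM, 6 at 0.5 TPM and 7 with rescaled TPM, and were 5 to 6 by library. Detected genes of the interval (7) became 11 with rescaled TPM and 3 at 5 TPM, and were 7 to 8 by library. Of 46 such values for comparisons 33 were the same and 13 moved, and of 98 for single members 72 were the same and 26 moved. Same meant within 1 SD of the 2 libraries, within counting error for differences between libraries, or within a fixed fold for numbers of genes. With 2 libraries, the value of either library alone always lies within 1 SD of their mean. For levels, percents and class comparisons, values by library were therefore the same by construction. Depth limits Begain most, with 34.2 and 23.2 counts.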
